A study of Mus musculus with 10 samples.

Results

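Glycolysis splits glucose into pyruvate in the cytosol, and lactate dehydrogenase then turns pyruvate into lactate. Hexokinase, phosphofructokinase and pyruvate kinase catalyse its nearly irreversible steps, and most steps can be run by several isozymes encoded by different genes. mTORC1, the kinase complex that senses nutrients, can raise transcription of these genes through the transcription factor HIF1. In the kidney, glycolysis is a property mainly of the distal nephron and the medulla, whereas proximal tubule cells oxidise fatty acids and make glucose.

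The transcripts examined here belong to 10 glycolytic enzyme genes, chosen by name: Hk1, Hk2, Pfkl, Pfkm, Pfkp, Aldoa, Pgk1, Eno1, Pkm and Ldha. They were found by exact gene symbol among the 13299 genes of the deposited table, which held 9 of the 10. Hk2, the insulin-regulated hexokinase, was not analysed here. The 9 enzymes all had at least 5 normalized counts in at least 5 samples and entered the test across 13236 genes.

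The study compared whole kidneys of 5 Rragc S74N/+ mice and 5 Rragc +/+ mice, all 1.5 years old per the labels, to learn how a mildly active nutrient signal changes the aged organ. Rragc encodes RagC, a GTPase that recruits mTORC1 to the lysosome, and the mutant allele was knocked into the endogenous gene in one copy, so every cell type of the mouse carries it. The strain is given as C57BL/6, no treatment is named in the labels, and the sex of the mice is not given there. Each sample was 1 library of the 3′ ends of mRNAs, and values are normalized counts, that is, reads of a gene divided by a size factor of the sample. Depth ran from 4488493 to 5797251 reads in the 8 libraries whose reads were recovered.

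The tissue label was checked against markers. All 10 proximal tubule markers were present, among them the phosphate transporter Slc34a1 with a mean of 18242 normalized counts in Rragc +/+ kidneys, and of 5 skeletal muscle and 5 adrenal markers none was listed. In whole tissue, fewer cells of a type and less RNA per cell cannot be told apart.

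None of the 9 enzymes passed the test between the genotypes. At a limma adjusted p under 0.05, 0 rose and 0 fell, beside 6.03% of all tested genes (3.45% higher and 2.58% lower in Rragc S74N/+ kidneys). At an unadjusted p under 0.05 the count was also 0 of 9, beside 25.4% of all tested genes, and edgeR and DESeq2 on the 8 libraries with recovered reads each called 0 of 9. The groups overlapped for all 9 enzymes, and they did not overlap for 8.16% of tested genes. For only 9 genes a count of 0 lies near the shares of 6.03% and 8.16%, so it does not set these enzymes apart. The median log2 fold change was -0.20 over the 9 enzymes and -0.01 over all genes, with 6 of 9 below 0 against 51.3% of all genes. With samples scaled to equal totals of normalized counts, these medians were -0.12 and 0.06.

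**Figure D1:**
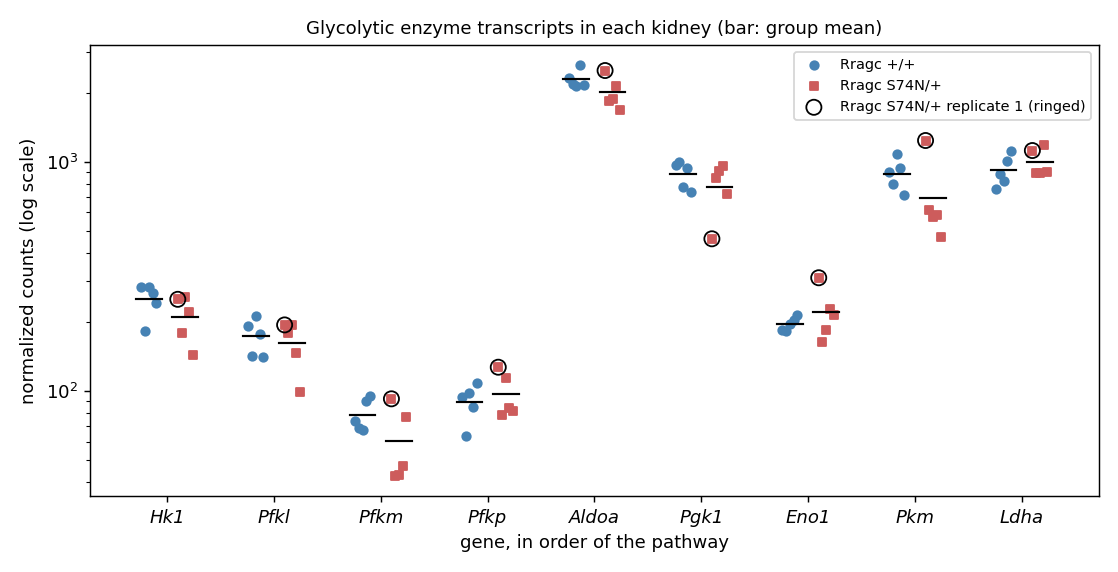
Normalized counts (log axis) of the 9 glycolytic enzyme transcripts in each kidney, with blue circles for 5 Rragc +/+ kidneys, red squares for 5 Rragc S74N/+ kidneys, bars for group means and a ring around Rragc S74N/+ replicate 1. The genotypes overlap for every gene, and the ringed kidney is the highest of its group for Pkm (1237) and Eno1 (311) and the lowest for Pgk1 (461).

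The levels of the 9 transcripts spanned a wide range, and since 1 tag is read per transcript, counts can be set side by side without a correction for length, apart from differences in priming and mapping. In Rragc +/+ kidneys, Aldoa was the highest with 2284 ± 210.1 normalized counts (SD, n = 5), above the next gene in 5 of 5 kidneys. Ldha, Pkm and Pgk1 followed with means of 919, 887 and 882, and their ranges overlapped, so their order was not fixed. Hk1 (252), Eno1 (196) and Pfkl (173) formed a lower step, again with overlapping neighbours. The place of Eno1 in this order is uncertain, because its 3′ end is shared with another annotated gene, as given below. Pfkp (89.7) and Pfkm (78.8) were the lowest and also overlapped. The rank of Aldoa, Ldha, Pfkl, Pfkp and Pfkm was the same in Rragc S74N/+ kidneys, where Pgk1 and Pkm exchanged places, as did Hk1 and Eno1.

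**Figure D2:**
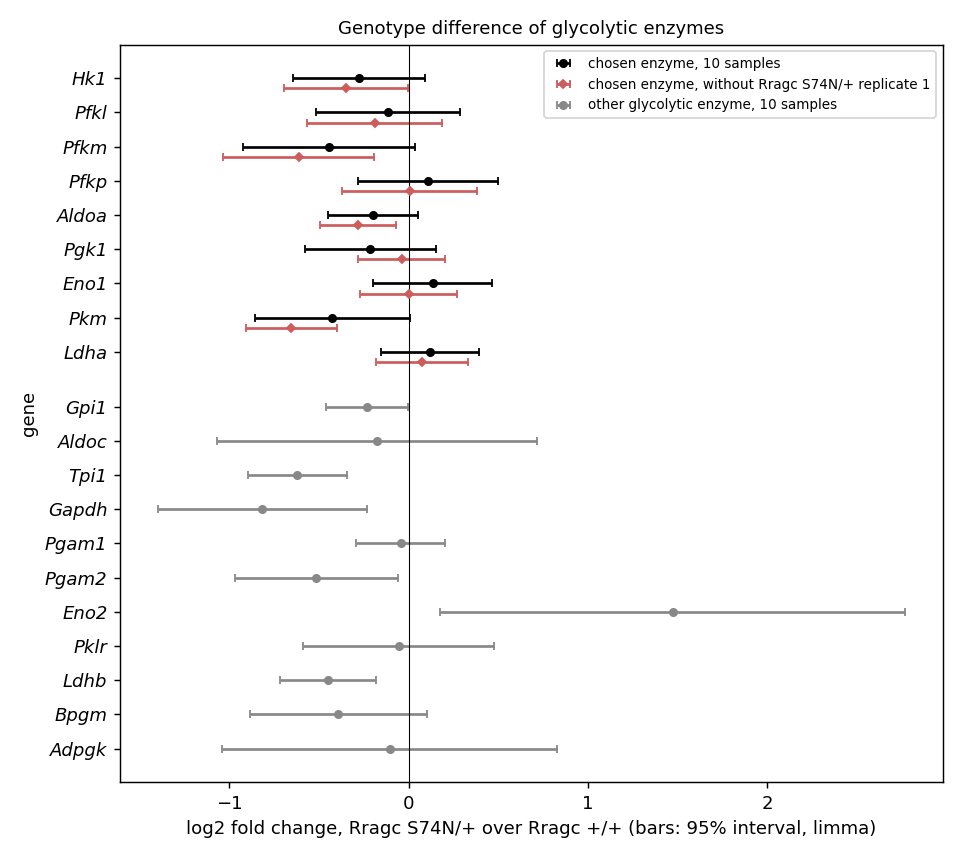
Log2 fold change of Rragc S74N/+ over Rragc +/+ kidneys (x axis, bars for 95% intervals of limma) for the 9 chosen enzymes with all 10 samples (black) and without Rragc S74N/+ replicate 1 (red), and for 11 other glycolytic enzymes with all samples (grey). All 9 black intervals cross 0, and without replicate 1 that of Pkm runs from -0.91 to -0.40.

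Hk1 encodes the hexokinase that most cells use to trap glucose as glucose 6-phosphate. It had 284, 182, 285, 267 and 241 normalized counts in Rragc +/+ replicates 1 to 5 and 251, 178, 258, 219.99 and 143 in Rragc S74N/+ replicates 1 to 5. Rragc +/+ replicate 2 and Rragc S74N/+ replicates 2 and 5 were low, and the groups overlapped. The log2 fold change was -0.28 ± 0.17 (SE, 95% interval -0.65 to 0.09, limma adjusted p = 0.339). It was -0.15 without Rragc S74N/+ replicate 5.

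Phosphofructokinase commits sugar to glycolysis and is built from liver (Pfkl), muscle (Pfkm) and platelet (Pfkp) type subunits. Pfkm had 73.8, 68.7, 67.2, 89.9 and 94.5 normalized counts in Rragc +/+ replicates 1 to 5 and 92.3, 42.6, 43.0, 46.8 and 76.8 in Rragc S74N/+ replicates 1 to 5. Replicates 2, 3 and 4 of the Rragc S74N/+ group were below all Rragc +/+ kidneys, while replicates 1 and 5 lay among them. Its log2 fold change of -0.44 ± 0.23 (SE, 95% interval -0.92 to 0.04) had a limma adjusted p of 0.23, and of 0.0728 without Rragc S74N/+ replicate 1. Pfkl ran from 140.3 to 213 normalized counts in Rragc +/+ and from 99.1 to 194 in Rragc S74N/+ kidneys, with a log2 fold change of -0.11 ± 0.19 (SE). Pfkp ran from 63.5 to 108 and from 78.5 to 127, with a log2 fold change of 0.11 ± 0.19 (SE). The directions of Pfkl and Pfkp were not stable, since Pfkl was at 0.05 without Rragc S74N/+ replicate 5 and Pfkp at -0.01 without Rragc +/+ replicate 2.

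Aldoa encodes the aldolase of muscle and of most tissues, and Pgk1 the kinase that first returns ATP. Aldoa had 2325, 2171, 2139.7, 2636 and 2151 normalized counts in Rragc +/+ replicates 1 to 5 and 2497, 1839, 1869.6, 2134 and 1678 in Rragc S74N/+ replicates 1 to 5. Replicates 2 to 5 of the Rragc S74N/+ group lay below the lowest Rragc +/+ kidney and replicate 1 did not. The log2 fold change was -0.20 ± 0.12 (SE, 95% interval -0.45 to 0.05, limma adjusted p = 0.311). It was -0.28 ± 0.10 (SE, limma adjusted p = 0.0991) when Rragc S74N/+ replicate 1 was left out. Pgk1 had 964, 999.7, 772, 935 and 740.2 normalized counts in Rragc +/+ replicates 1 to 5 and 461, 846, 906, 955 and 725 in Rragc S74N/+ replicates 1 to 5. Here replicate 1 was the low one, and 3 of the other 4 lay inside the Rragc +/+ range. The log2 fold change of Pgk1 was -0.21 ± 0.17 (SE, limma adjusted p = 0.459), and -0.04 without that kidney.

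Eno1, the ubiquitous enolase, had 183, 183, 195, 204 and 214 normalized counts in Rragc +/+ replicates 1 to 5 and 311, 164, 184, 227 and 214 in Rragc S74N/+ replicates 1 to 5. Rragc S74N/+ replicate 1 was the highest and replicate 2 the lowest of all 10 kidneys. The spread was 6.82% of the mean in Rragc +/+ and 25.8% in Rragc S74N/+ kidneys. A log2 fold change of 0.13 ± 0.16 (SE) at a limma adjusted p of 0.633 became 0.00 without Rragc S74N/+ replicate 1 (-1.61e-05, adjusted p = 0.999983). Of the 9 transcripts, Eno1 alone shared its last 300 bases with another annotated gene, its copy Eno1b, at 95% identity or more over at least 100 bases, so its count is uncertain.

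Pyruvate kinase M, encoded by Pkm, makes pyruvate and ATP in the last energy-yielding step. Its 3′ end is shared by the PKM1 and PKM2 splice forms, which these reads therefore do not separate. Pkm had 902, 796, 1078, 942 and 718 normalized counts in Rragc +/+ replicates 1 to 5. In Rragc S74N/+ replicates 1 to 5 it had 1237, 616, 575, 586 and 467. As for Aldoa, replicates 2 to 5 of the Rragc S74N/+ group lay below every Rragc +/+ kidney, whereas the Pkm value of replicate 1 lay above all of them. Group means were 887 ± 138 and 696 ± 307 (SD, n = 5 each). The difference was a log2 fold change of -0.42 ± 0.20 (SE, 95% interval -0.86 to 0.01, limma adjusted p = 0.204).

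The value of Pkm depended on that library. Each of the 10 libraries was left out in turn, and without Rragc S74N/+ replicate 1 the mean of the other 4 was 561 ± 64.9 normalized counts, the log2 fold change was -0.65 ± 0.12 (SE, 95% interval -0.91 to -0.40) and the limma adjusted p was 0.00285. In that fit 6.8% of all tested genes were called, 1 of the 9 enzymes among them. In the other 9 fits the log2 fold change of Pkm stayed between -0.50 and -0.30 and did not pass. Replicate 1 differed from its group in other measures as well. Its summed red blood cell markers came to 2739 normalized counts against 10933 to 13753 in the other 4 Rragc S74N/+ kidneys. It also had 1732 normalized counts of Tkt, the transketolase of the pentose phosphate pathway, against 520 to 578. Its thick ascending limb markers were the lowest of the group without standing clear of it, at 3655 against 4918 to 9070. At 4930328 reads it was neither the deepest nor the shallowest library. The part of these differences in the Pkm value was not tested.

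The number in the sample titles falls into a lower range, with 3 kidneys of each genotype, and a higher range, with 2 of each. On the log2 scale Pkm stood at -0.27 ± 0.27 (SE, limma adjusted p = 0.589) within the lower range, where 0.348% of genes were called. It stood at -0.65 ± 0.15 (SE, limma adjusted p = 0.0104) within the higher range, where 4.66% were called. The lower range holds Rragc S74N/+ replicate 1. The labels do not say what the number stands for.

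Ldha encodes the lactate dehydrogenase subunit that favours lactate formation. It had 761, 887, 824, 1010.4 and 1114 normalized counts in Rragc +/+ replicates 1 to 5 and 1118, 888, 889.8, 1182 and 905 in Rragc S74N/+ replicates 1 to 5. Only Rragc S74N/+ replicates 1 and 4 exceeded the highest Rragc +/+ kidney. The log2 fold change was 0.12 ± 0.13 (SE, 95% interval -0.15 to 0.39, limma adjusted p = 0.604), an interval of -10.2% to 31.2% as a percent change. The log2 fold change of Ldha was 0.05 without Rragc +/+ replicate 1 or without Rragc S74N/+ replicate 4. It was 0.07 when Rragc S74N/+ replicate 1 was left out and 0.19 when Rragc +/+ replicate 5 was.

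The promoters of Ldha and Pkm are shown because these enzymes catalyse neighbouring last steps and are known targets of HIF1. They were also picked for log2 fold changes of opposite sign, of which neither passed the test over all 10 samples. HIF1 binds a core written ACGTG or GCGTG. Both were searched on both strands in RefSeq windows of 250 bases before to 50 bases after each start (build GRCm38.p6), where a CACGTG counts as a match on each strand. Below, the 250 bases before the most upstream start are printed 5′ to 3′ with matches in capitals, on the plus strand at chr7:46845554-46845803 for Ldha and chr9:59656326-59656575 for Pkm.
Ldha: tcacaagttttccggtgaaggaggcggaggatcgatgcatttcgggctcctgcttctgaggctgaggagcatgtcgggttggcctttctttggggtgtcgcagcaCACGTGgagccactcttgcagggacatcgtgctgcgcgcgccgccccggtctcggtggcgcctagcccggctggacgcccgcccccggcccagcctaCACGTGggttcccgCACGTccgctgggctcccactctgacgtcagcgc
Pkm: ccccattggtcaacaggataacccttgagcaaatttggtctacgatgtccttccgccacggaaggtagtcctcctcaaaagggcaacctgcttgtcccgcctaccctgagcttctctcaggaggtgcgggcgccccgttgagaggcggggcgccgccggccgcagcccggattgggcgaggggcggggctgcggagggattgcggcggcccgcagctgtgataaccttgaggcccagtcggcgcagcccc
The Ldha stretch held 5 matches and that of Pkm 0, although the next Pkm start had 2 in its window. In the window of the most upstream start, 7 of the 10 enzymes had at least 1 match (Hk1, Aldoa and Pkm had 0), beside 43.8% of 27025 genes. Counting every start, all 10 had at least 1, beside 46.7% of genes. These shares are not alike, since the 10 enzymes had 20 windows and the 27025 genes 32851. More windows per gene give more room for a match. A match is a description of letters and not a binding site, and its relation to the fold changes was not tested.

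The 9 transcripts did not vary as one. Each was turned into a z-score over the 10 samples, and profiles were compared by the root mean square difference, which is 0 for identical profiles. Aldoa and Pkm were the closest pair (0.55), followed by Hk1 and Pfkl (0.59) and by Eno1 and Ldha (0.76). Aldoa was the nearest to the mean profile of the 9 (0.44) and Pgk1 the farthest (1.57). In Rragc S74N/+ replicate 1, Eno1 was at 2.38 and Pgk1 at -2.46, the highest and the lowest z-scores of the whole set. Genes like the mean profile were sought among 5168 genes outside the lists with a mean of at least 100 normalized counts. Those most like it over the 10 samples were Ermp1 (0.35), Smtn (0.398), Hoxb8 (0.40), Acsl1 (0.40) and Ypel3 (0.44). None of these 5 passed the threshold between genotypes (limma adjusted p from 0.256 to 0.866). They were picked to match a profile that overlaps between the genotypes, so this result gives no separate evidence.

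**Figure D3:**
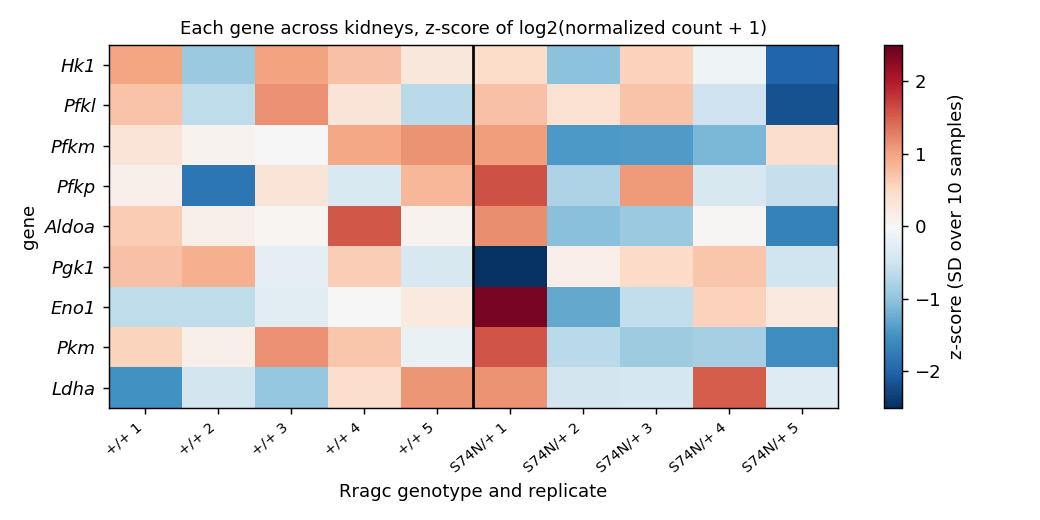
Heat map of z-scores of log2(normalized count + 1) over the 10 samples, with a row for each of the 9 enzymes and a column for each kidney, Rragc +/+ on the left and Rragc S74N/+ on the right of the line. Rragc S74N/+ replicate 1 is red for Eno1 (2.38) and blue for Pgk1 (-2.46), and no row separates the genotypes by colour.

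The 9 transcripts summed to 5762 ± 346 normalized counts in the Rragc +/+ and to 5224 ± 733 in the Rragc S74N/+ group (SD, n = 5 each), with ranges of 5493 to 6346 and 4389 to 6288 that overlapped. The difference of -538 ran from -804.2 without Rragc S74N/+ replicate 1 to -329 without Rragc S74N/+ replicate 5 when libraries were left out in turn, and was -236 with samples scaled to equal totals. The sums were 0.117% ± 0.0078 and 0.112% ± 0.0164 of all normalized counts. Aldoa made up 39.6% ± 1.42 and 38.3% ± 0.919 of the sum.

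Shares of isozymes within a kidney do not depend on the scaling of the sample, and 5 were compared and adjusted together, of which 4 are given here. Ldha was 38.8% ± 5.09 of the summed Ldha and Ldhb counts in Rragc +/+ and 48.3% ± 6.87 in Rragc S74N/+ kidneys (SD, n = 5 each; exact permutation test, two-sided, p = 0.0556, adjusted p = 0.159). The Rragc +/+ kidneys ran from 33.8% to 45.6% and the Rragc S74N/+ kidneys from 43.2% to 58.7%. The smallest p the design allows is 0.00794. Pfkp was 26.2% ± 3.26 and 30.3% ± 2.45 of the phosphofructokinase counts (SD, n = 5 each; exact permutation p = 0.0635, adjusted p = 0.159), and Pfkm 23.3% ± 4.03 and 19.1% ± 7.07 (exact permutation p = 0.286, adjusted p = 0.357). Without Rragc +/+ replicate 5, the shares of Ldha and Pfkp both had an adjusted exact permutation p of 0.0397, with differences of 11.25 and 5.51 percentage points. In the other 9 fits with a library left out neither share passed, with adjusted exact permutation p up to 0.298. The highest Ldha share, 58.7%, was that of Rragc S74N/+ replicate 1. Pkm was 95.3% ± 1.45 and 93.99% ± 1.96 of the summed Pkm and Pklr counts. This share did not pass (exact permutation p = 0.254, adjusted p = 0.357).

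**Figure D4:**
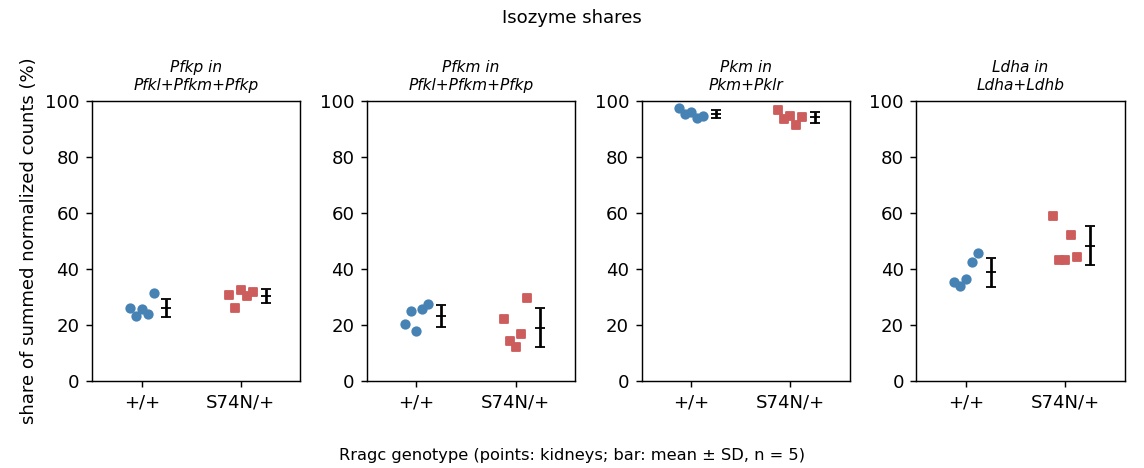
Share in percent of 1 isozyme in the summed normalized counts of its family, for 5 Rragc +/+ (blue circles) and 5 Rragc S74N/+ kidneys (red squares), with mean ± SD beside the points. The Ldha share runs from 33.8% to 45.6% in Rragc +/+ and from 43.2% to 58.7% in Rragc S74N/+ kidneys, and the genotypes overlap in all 4 panels.

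Other enzymes of the pathway were examined from a list of 19 genes, of which 12 were tested. Of these, 0 rose, 2 fell and 10 did not pass in limma, and the median log2 fold change was -0.20. The log2 fold change was below 0 for 11 of 12, and 6 of 12 had an unadjusted p under 0.05 in limma. Over all tested genes, 6.03% were called and 25.4% had an unadjusted p under 0.05 in limma. On the 8 libraries edgeR called Tpi1 lower, and DESeq2 called Tpi1, Ldhb and Gapdh lower. Tpi1, the triose phosphate isomerase, fell from 720.2 ± 121 to 467 ± 60.2 normalized counts (SD, n = 5 each), with a log2 fold change of -0.62 ± 0.13 (SE) at a limma adjusted p of 0.0133, and its groups did not overlap. Without the variance trend the adjusted p of Tpi1 in limma was 0.0533. Ldhb, the lactate dehydrogenase subunit that favours pyruvate formation, fell from 1452 ± 166 to 1070.1 ± 161 normalized counts, with a log2 fold change of -0.45 ± 0.13 (SE) at a limma adjusted p of 0.0469. Its groups did not overlap either. The last 300 bases of Ldhb match 1 annotated pseudogene, Gm5514, under the criteria above, so its count and the Ldha share are uncertain. The call of Ldhb was lost in 12 of 22 other settings (filters, scalings, tools and each library left out), among them the fits without any single Rragc +/+ kidney and without Rragc S74N/+ replicate 2, 4 or 5 (limma adjusted p from 0.0527 to 0.134). Gapdh had 440.1 ± 115 and 264 ± 98.9 normalized counts, with a log2 fold change of -0.81 ± 0.28 (SE) at a limma adjusted p of 0.0857. The last 300 bases of Gapdh match 118 annotated pseudogenes under the criteria above, so its count is uncertain.

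Carriers of glucose and lactate were read next. Of 17 listed, 15 were tested, 0 rose and 2 fell. An unadjusted p under 0.05 in limma was seen for 6 of 15, beside 25.4% of all tested genes. Slc16a7, a monocarboxylate transporter of high affinity, fell from 257 ± 27.5 to 54.5 ± 16.6 normalized counts, a log2 fold change of -2.26 ± 0.19 (SE) at a limma adjusted p of 4.61e-06. Slc5a2, the sodium-glucose cotransporter of the early proximal tubule, fell from 845 ± 48.2 to 415 ± 89.7, a log2 fold change of -1.05 ± 0.14 (SE) at a limma adjusted p of 0.000476. Both calls held in all 22 settings, edgeR and DESeq2 included. Slc2a1, the basal glucose transporter and a target of HIF1, had a log2 fold change of -0.15 ± 0.22 (SE) at a limma adjusted p of 0.699.

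Among regulators of flux through glycolysis and of pyruvate entry into mitochondria, 16 of 19 were tested, and 0 rose and 2 fell in limma. Without adjustment, 5 of 16 had a p under 0.05 in limma. On the 8 libraries edgeR called Pdp2 lower, and DESeq2 Pdp2 and Mpc2. Pdp2, a phosphatase that activates pyruvate dehydrogenase, fell from 672 ± 67.2 to 412 ± 75.4 normalized counts (log2 fold change -0.72 ± 0.14, SE, limma adjusted p = 0.00787). Fbp2, a fructose bisphosphatase of muscle, fell from 35.7 ± 13.2 to 14.9 ± 7.86 (log2 fold change -1.28 ± 0.35, SE, limma adjusted p = 0.04). The Fbp2 call was lost in 12 of 21 settings, among them the fits without any single Rragc +/+ kidney and without Rragc S74N/+ replicate 3, 4 or 5 (limma adjusted p from 0.052 to 0.101). In the pentose phosphate pathway, 8 of 8 genes were tested and 0 passed (limma), with 1 at an unadjusted p under 0.05, and edgeR and DESeq2 on the 8 libraries also called 0.

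HIF1 links mTORC1 to these enzymes, so its pathway and its other targets were read beside them. Hif1a had 227 ± 29.6 and 285 ± 72.3 normalized counts, with a log2 fold change of 0.30 ± 0.17 (SE) at a limma adjusted p of 0.276. Of 12 genes of the HIF pathway 11 were tested, and 3 had an unadjusted p under 0.05 in limma. The single call was Egln1, a prolyl hydroxylase that marks HIF proteins for destruction. It fell from 206 ± 69.4 to 106 ± 37.1 normalized counts (log2 fold change -0.97 ± 0.28, SE, limma adjusted p = 0.0485), and the call was lost in 11 of 22 settings, among them the fits without Rragc +/+ replicate 1, 2, 3 or 4 or Rragc S74N/+ replicate 2 or 5 (limma adjusted p from 0.0712 to 0.139). Of 22 HIF targets outside glycolysis 19 were tested, 0 rose and 1 fell in limma, and the median log2 fold change was -0.04. That 1 of 19 stands beside 6.03% of all tested genes. Without adjustment, 8 of 19 had a p under 0.05 in limma, beside 25.4% of all tested genes. On the 8 libraries with recovered reads, edgeR called 1 higher and 0 lower, and DESeq2 1 higher and 2 lower (Ndrg1 and Cited2). The higher gene was Lox in both, a lysyl oxidase that crosslinks collagen, named after its values were seen. Lox had 12.4 ± 3.02 and 34.1 ± 18.99 normalized counts (log2 fold change 1.24 ± 0.37, SE, limma adjusted p = 0.0567). Ndrg1 fell from 9712 ± 928 to 6490 ± 1521 normalized counts (log2 fold change -0.61 ± 0.16, SE, limma adjusted p = 0.0352). The Ndrg1 call was lost in 6 of 22 settings, among them the fits without Rragc +/+ replicate 1, 2 or 4 or Rragc S74N/+ replicate 5 (limma adjusted p from 0.0755 to 0.0937). Within each range of title numbers, Tpi1, Ldhb, Slc16a7, Slc5a2, Pdp2, Fbp2, Egln1 and Ndrg1 all had log2 fold changes below 0, and Slc16a7 and Slc5a2 alone passed in both ranges. Vegfa, a classic target of HIF1, had a log2 fold change of 0.08 ± 0.16 (SE) at a limma adjusted p of 0.801.

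Markers of some cell types differed between the genotypes. The counts below stand beside 6.03% of all tested genes called in limma, 3.45% higher and 2.58% lower in Rragc S74N/+ kidneys. All 4 distal convoluted tubule markers fell, with summed levels of 4477 to 5597 normalized counts in Rragc +/+ and 1365 to 2130 in Rragc S74N/+ kidneys. Of 8 macrophage markers 3 rose and 0 fell, with sums of 627 to 820 and 958 to 1257, and of 6 fibroblast markers 3 rose, with sums of 805 to 1403 and 1313 to 2188. Log2 fold changes below 0 were seen for 2 of the 8 macrophage and 1 of the 6 fibroblast markers. The 5 red blood cell markers had log2 fold changes from -1.62 to -0.73, and 0 passed (4 at an unadjusted p under 0.05 in limma, and 0 by edgeR or DESeq2 on the 8 libraries). Of the thick ascending limb markers 2 of 5 fell, and of the intercalated cell markers 1 of 6 rose and 2 fell. In limma 1 of 5 podocyte, 1 of 3 tested T cell and 1 of 2 tested neutrophil markers rose. The neutrophil sums were low, at 11.4 to 26.8 and 32.0 to 71.3 normalized counts. Of the endothelial markers 1 of 6 fell, while 4 of 6 had log2 fold changes above 0. No call was made among 6 collecting duct principal cell and 4 tested B and plasma cell markers. Of 10 proximal tubule markers 0 rose and 1 fell, Slc5a2, while their sums of 55009 to 70402 and 54159 to 71275 overlapped. Mitochondrial transcripts took 35.8% to 38.0% of the counts in Rragc +/+ and 33.8% to 36.8% in Rragc S74N/+ kidneys. The part of cell composition in the enzyme values was not tested.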

How the data were processed

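RNA of whole kidney (300 ng per library, quality scores of 6.2 to 7 per the labels) was made into oligo-dT primed 3′ libraries. Per the submitters' notes and the study's methods, reads were checked with FastQC 0.11.7, aligned to GRCm39 with TopHat2 2.0.10, Bowtie 1.0.0 and SAMtools 0.1.19 and counted on the sense strand with HTSeq 0.6.1. The authors divided the reads of each gene by a size factor of the sample, and the deposited signal is that normalized count. How genes with few reads were left out is not given in the sources used here.

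From these values, log2(normalized count + 1) was modelled on genotype alone by limma 3.58.1 (R 4.3.3), with a variance trend, for genes with at least 5 normalized counts in at least 5 of 10 samples. P-values were adjusted by Benjamini-Hochberg over all 13236 genes, two-sided, at 0.05. Fold changes are on this scale, which understates changes of low genes. Whole reads were recovered in 8 columns, all values lying within 0.1 step of a whole number (100%), and only these entered edgeR 4.0.16 and DESeq2 1.42.0. The remaining columns, Rragc +/+ replicate 5 and Rragc S74N/+ replicate 3, also had 100% of values within 0.1 step of a whole number. They were left out because their steps, 0.9949 and 0.9998, were too near 1 for the check applied. Isozyme shares were compared by exact permutation of samples. The ends of transcripts were compared with BLAST 2.17.0 on GENCODE M21, an older release on GRCm38. The fit was tested on simulated data.

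Replicates were numbered in order of accession, and p-values weigh a genotype difference against the spread between these samples. The members and gene lists were chosen with earlier results of these data known. The text names all chosen enzymes, up to 6 called genes per list, the reference genes and the 5 genes most like the set. A gene of the lists and a share that uses it are not reported here.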

Additional observations from a re-analysis of the deposited data

Results flagged for a closer look

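In 54 sets of 5 kidneys (27 results in both genotypes), 1 kidney stood clear of its group 3 times, and about 2.7 such cases arise by chance at 1 in 20. Rragc S74N/+ replicate 1 had 1237 normalized counts of Pkm, while the other 4 kidneys of its group had 467 to 616. The same kidney was low in Ldhb, with 786 normalized counts beside 1094 to 1169.7. In Rragc +/+ replicate 2, Ldhb was high at 1740.4 normalized counts, the other 4 being at 1329 to 1436. Causes were not tested for these kidneys.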

How the results depend on the processing

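Of 198 values of the 9 enzymes under 22 other settings, 194 kept their direction and their side of the threshold, 1 (Pkm without Rragc S74N/+ replicate 1) passed it and 3 changed sign, all with a library left out. With each library left out in turn, log2 fold changes ran from -0.189 to 0.0512 for Pfkl, from -0.00967 to 0.181 for Pfkp and from -1.61e-05 to 0.231 for Eno1, and these fits gave 0 to 1 enzymes past the threshold and 311 to 902 genes overall. Differences in share then ran from 6.93 to 11.25 percentage points for Ldha and from 3.41 to 5.51 for Pfkp. eBayes without the trend called 391 genes and DESeq2 on 8 samples 1402, against 798, and 0 of the 9 enzymes in either. Scaling to equal totals gave 718 higher and 225 lower genes, against 457 and 341, and moved the median of all genes from -0.01 to 0.06. The fits within a range of title numbers were chosen after the data were seen. The lower range called 46 genes and 0 enzymes, and the higher range 617 genes and 1 enzyme, Pkm. In the lower range Pfkl was at 0.0669, and in the higher range Pfkp was at -0.204, Ldha at -0.037 and Pgk1 at 8.76e-05, each opposite in sign to the value over all samples. With this range as a block, 860 genes and 0 enzymes passed. The causes were not tested. No paired analysis was made, since the labels name no pairs between kidneys of different genotype. Counts of 42.6 to 127 for Pfkm and Pfkp limit their precision.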
